A study of Rattus norvegicus with 9 samples.

Results

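The genes described here carry out excitation-contraction coupling and calcium handling in the tibialis anterior muscle (TIB) of fed and fasted rats. They are Ryr1 and Cacna1s (calcium release), Jph1, Jph2 and Sypl2 (the junction), Atp2a1 and Atp2a2 (the calcium pumps), and Casq1, Casq2 and Pvalb (the calcium buffers). The 10 members were chosen by name for these roles, and where a gene had several probe sets, the brightest on average over the 9 arrays stood for it. The choice was made with earlier results of these data known. Of the 10 members, 8 had a probe set with a single gene symbol, out of 14506 such genes in all. Cacna1s, the voltage sensor subunit, and Casq1, the calsequestrin of fast fibres, had none and were not analysed here.

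The muscle RNA of each rat was hybridised to its own array (Affymetrix Rat Gene 1.0 ST). The rats were male Sprague Dawley animals that were 10 weeks old when bought and were housed singly with free access to water. The groups are 3 Fed rats with free access to food, 3 rats fasted into phase 2 (P2) and 3 rats fasted into phase 3 (P3). P2 is the phase in which body protein is spared and lipid is the main fuel, and P3 the later phase in which protein breakdown accelerates. The phase of each fasted rat was set from its rate of body mass loss, P3 rats were killed on the day after that phase began, and the labels give no day for any rat.

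Skeletal muscle contracts when a membrane potential change in the transverse (T) tubule is passed to the ryanodine receptor of the sarcoplasmic reticulum, at a junction of the 2 membranes called the triad. Junctophilins tie these membranes together, calsequestrin binds calcium inside the reticulum, and the pumps of the Atp2a family (SERCA) return calcium to it after the contraction. Parvalbumin binds calcium in the cytosol of fast fibres and speeds relaxation.

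The values are log2 intensities, so a difference of 1 is a 2-fold change of the signal, and levels of different probe sets are not set against each other. Each group comparison used limma on all 9 arrays, and a gene counts as changed where its p-value, adjusted over all 29215 probe sets, is under 0.05. Changes are given as log2 fold changes ± SE and group levels as mean ± SD, with n = 3 rats per group throughout. Array medians lay between 5.801 and 5.899, and arrays correlated at r = 0.987 to 0.994 within groups and 0.957 to 0.987 between groups, across probe sets that are not independent replicates.

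The genes of the junction and the measured buffers fell in P3, whereas the release channel and the pumps did not pass the test. In P3, Jph1, Jph2, Sypl2, Casq2 and Pvalb were lower than in Fed rats, which is 5 of the 8 measured members, beside 13.4% of all probe sets called lower and 15.8% called higher. In P2, Jph2, Casq2 and Pvalb were lower than in Fed rats, 3 of 8, beside 4.15% lower and 5.13% higher among all probe sets. Between P3 and P2 the same 5 genes as in P3 versus Fed were lower, beside 7.52% lower and 8.5% higher among all probe sets. No member was called higher in any of the 3 comparisons, of which those of P2 and of P3 with Fed share the same Fed arrays. The median log2 fold change of the 8 genes was -0.54 in P2 versus Fed, -1.74 in P3 versus Fed and -1.25 in P3 versus P2, while the median over all probe sets was 0.01, 0.00 and -0.01. In whole muscle, fewer cells of a type and less RNA per cell cannot be told apart.

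**Figure D1:**
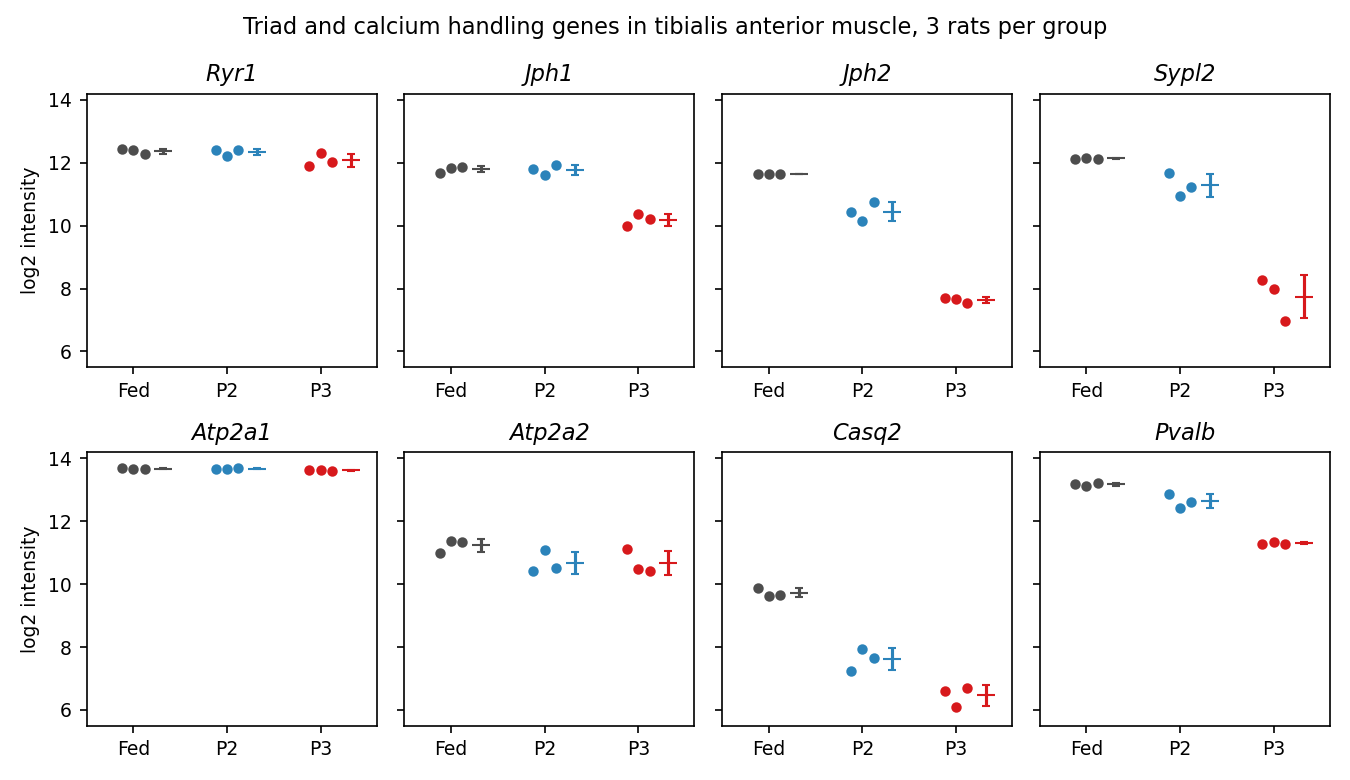
Log2 intensity (vertical axis) of the 8 measured members in each rat, with the Fed, P2 and P3 groups from left to right in each panel; points are rats and the bar beside them is the mean ± SD (n = 3). All P3 rats lie below all Fed and P2 rats for Jph1, Jph2, Sypl2, Casq2 and Pvalb, while Atp2a1 stays between 13.60 and 13.68 in all 9 rats.

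The sequences before the transcription starts of the 4 fallen genes with a promoter window are shown because these genes were all called lower in P3 versus Fed. RefSeq promoter windows on the GRCr8 build matched 7 of the 8 measured members, and Jph1 was not among them. Each line gives the 250 bases before the start, 5′ to 3′ along the gene, and capitals mark matches to the motifs searched on both strands. The 4 motifs searched were the E box (CANNTG), bound by myogenic factors, the MEF2 site, the glucocorticoid receptor element in its short form (AGAACA) and the core of the FOXO site (TGTTTAC).
Jph2 (chr3:172477922-172478171, minus strand): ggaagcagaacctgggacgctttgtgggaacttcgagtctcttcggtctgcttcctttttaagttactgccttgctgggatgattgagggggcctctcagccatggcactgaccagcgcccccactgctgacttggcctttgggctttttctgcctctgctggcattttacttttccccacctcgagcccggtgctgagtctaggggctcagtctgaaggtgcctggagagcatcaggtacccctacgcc
Sypl2 (chr2:198551940-198552189, minus strand): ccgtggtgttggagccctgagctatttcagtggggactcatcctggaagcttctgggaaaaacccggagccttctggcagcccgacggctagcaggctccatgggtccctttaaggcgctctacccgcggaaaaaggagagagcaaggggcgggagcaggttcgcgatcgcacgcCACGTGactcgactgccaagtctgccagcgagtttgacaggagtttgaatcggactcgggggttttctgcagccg
Casq2 (chr2:192214306-192214555, plus strand): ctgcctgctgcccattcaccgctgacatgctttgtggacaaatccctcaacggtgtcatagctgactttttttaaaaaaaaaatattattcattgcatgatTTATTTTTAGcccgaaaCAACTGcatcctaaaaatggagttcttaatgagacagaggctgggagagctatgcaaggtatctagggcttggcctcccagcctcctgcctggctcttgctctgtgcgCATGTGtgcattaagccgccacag
Pvalb (chr7:111666290-111666539, minus strand): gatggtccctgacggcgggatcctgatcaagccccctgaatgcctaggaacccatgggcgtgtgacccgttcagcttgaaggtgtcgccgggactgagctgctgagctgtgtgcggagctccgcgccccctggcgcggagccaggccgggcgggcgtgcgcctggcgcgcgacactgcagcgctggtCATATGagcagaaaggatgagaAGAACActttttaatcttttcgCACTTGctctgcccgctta
The Casq2 window holds a MEF2 site match (TTATTTTTAG) at bases 149 to 140 before the start and 2 E boxes, and it is the 1 member window of 7 with a MEF2 site, against 3.1% of 27457 windows of the same length. The Pvalb window holds 2 E boxes and 1 short glucocorticoid receptor element at bases 41 to 36, a motif found in 17.1% of all windows. The Sypl2 window holds 1 E box, CACGTG, and the Jph2 window holds none of the 4 motifs. E boxes were in 6 of the 7 member windows, those of Ryr1, Atp2a1 and Atp2a2 included, and in 65.2% of all windows. FOXO cores were in none of the 7 and in 3.2% of all windows. A match describes these letters only and is not a binding site.

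Ryr1, the ryanodine receptor that releases calcium from the reticulum of skeletal muscle, did not pass the test in any of the 3 comparisons. The log2 intensity of Ryr1 was 12.42, 12.41 and 12.26 in the Fed rats, 12.41, 12.22 and 12.39 in the P2 rats, and 11.91, 12.30 and 12.02 in the P3 rats. The rat P3 2 lay within the range of the Fed and P2 rats, and the other P3 rats lay below both groups. The log2 fold change was -0.29 ± 0.11 in P3 versus Fed (limma, adjusted p = 0.0866), -0.26 ± 0.11 in P3 versus P2 (adjusted p = 0.17) and -0.02 ± 0.11 in P2 versus Fed (adjusted p = 0.933). Without P3 2, Ryr1 passed the test at -0.40 in P3 versus Fed (adjusted p = 0.0167) and at -0.37 in P3 versus P2 (adjusted p = 0.0376). With any other rat left out it passed in neither comparison. Without P3 1, for example, P3 versus Fed gave -0.20 (limma, adjusted p = 0.257).

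Jph2, a junctophilin of skeletal, cardiac and smooth muscle, fell in both phases. Its log2 intensity was 11.65, 11.63 and 11.64 in the Fed rats, 10.43, 10.15 and 10.75 in the P2 rats, and 7.70, 7.66 and 7.52 in the P3 rats. The 3 groups did not overlap, and the Fed rats differed by no more than 0.02. Jph2 averaged 7.63 ± 0.09 in P3 and 11.64 ± 0.01 in Fed rats, a log2 fold change of -4.01 ± 0.13 or a 16.1-fold lower signal (limma, adjusted p = 2.79e-07). Only 12 of the 29215 probe sets had a more negative fold change in P3 versus Fed. In P2 versus Fed the log2 fold change was -1.19 ± 0.13 (adjusted p = 0.00102), which left 43.7% of the Fed signal. P3 was lower than P2 by a log2 fold change of -2.81 ± 0.13 (adjusted p = 5.42e-06).

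Jph1, the junctophilin found mainly in skeletal muscle, fell in P3 and did not pass the test in P2. Its log2 intensity was 11.68, 11.83 and 11.86 in the Fed rats, 11.79, 11.61 and 11.93 in the P2 rats, and 9.996, 10.37 and 10.20 in the P3 rats. The Fed and P2 rats overlapped, and every P3 rat lay more than 1 log2 unit below them. The log2 fold change was -1.60 ± 0.12 in P3 versus Fed, a 3.03-fold lower signal (limma, adjusted p = 1.15e-05), and -1.59 ± 0.12 in P3 versus P2 (adjusted p = 4.16e-05). In P2 versus Fed it was -0.01 ± 0.12 (adjusted p = 0.967).

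The 2 junctophilins moved by different amounts within the same rats. The log2 difference of Jph2 minus Jph1, given relative to its Fed mean because its level has no meaning of its own, was 0.12, -0.05 and -0.07 in the Fed rats, -1.21, -1.31 and -1.03 in the P2 rats, and -2.14, -2.55 and -2.53 in the P3 rats. The groups did not overlap. Its mean differed from that of Fed rats by -1.18 in P2 and by -2.41 in P3. An exact permutation test of the F statistic over the 1680 divisions of the 9 arrays gave p = 0.00357, the smallest p these divisions allow, and 0.00714 after Benjamini-Hochberg adjustment over the 2 pairs of related genes that could be tested.

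Sypl2, a synaptophysin-like membrane protein of the triad, had the largest P3 change of the 8 genes. Its log2 intensity was 12.11, 12.16 and 12.13 in the Fed rats, 11.66, 10.95 and 11.24 in the P2 rats, and 8.26, 7.996 and 6.97 in the P3 rats. The groups did not overlap, but the P3 rats spread by 1.29 between P3 1 and P3 3. Sypl2 averaged 7.74 ± 0.68 in P3 and 12.14 ± 0.02 in Fed rats, a log2 fold change of -4.39 ± 0.30 which left 4.76% of the Fed signal (limma, adjusted p = 8.64e-06). Only 5 of the 29215 probe sets had a more negative value. P3 versus P2 gave -3.54 ± 0.30 (adjusted p = 8.98e-05).

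In P2 versus Fed, Sypl2 had a log2 fold change of -0.85 ± 0.30 and did not pass the test (limma, adjusted p = 0.134), although all P2 rats lay below all Fed rats. Without P3 3, which widens the spread shared by the groups, the same difference passed (adjusted p = 0.0237). With any other rat left out it did not pass. A second Sypl2 probe set read 11.07, 11.09 and 11.08 in the Fed rats, 10.24, 9.69 and 9.93 in the P2 rats, and 7.29, 6.95 and 6.43 in the P3 rats. Its rats stood in the same order within P2 and within P3 as on the first probe set. Its log2 fold change was -1.12 ± 0.21 in P2 versus Fed (adjusted p = 0.0109), -4.19 ± 0.21 in P3 versus Fed (adjusted p = 1.46e-06) and -3.06 ± 0.21 in P3 versus P2 (adjusted p = 2.79e-05).

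Atp2a1, the fast fibre calcium pump, had nearly the same value in every rat. The log2 intensity of Atp2a1 was 13.68, 13.66 and 13.65 in the Fed rats, 13.67, 13.65 and 13.68 in the P2 rats, and 13.64, 13.63 and 13.60 in the P3 rats. The P3 rats lay just below the others, by a log2 fold change of -0.04 ± 0.06 versus Fed (limma, adjusted p = 0.652), which became 0.025 after another quantile normalization, and -0.05 ± 0.06 versus P2 (adjusted p = 0.695). In P2 versus Fed it was 0.01 ± 0.06 (adjusted p = 0.968). These values lie close to the highest signal of the arrays, which was 13.87 to 14.001, and the part of that in the small differences was not tested.

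Atp2a2, the pump of slow fibres and heart, was lower in most fasted rats but overlapped with the Fed group. Its log2 intensity was 10.99, 11.36 and 11.33 in the Fed rats, 10.42, 11.07 and 10.53 in the P2 rats, and 11.12, 10.48 and 10.41 in the P3 rats. P2 2 and P3 1 lay within the Fed range, and the other 4 fasted rats lay below it. The log2 fold change was -0.56 ± 0.23 both in P2 versus Fed (limma, adjusted p = 0.185) and in P3 versus Fed (adjusted p = 0.1), and 0.00 ± 0.23 in P3 versus P2 (adjusted p = 0.9997). Without P3 1, the P3 versus Fed value was -0.78 and passed the test (adjusted p = 0.0235). With any other rat left out it did not pass, as without P3 3, where it was -0.43 (limma, adjusted p = 0.273).

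The same 2 rats stood highest in their groups for most slow fibre genes, P2 2 for 8 of 9 (all but Mybpc1) and P3 1 for 7 of 9 (all but Myl2 and Mybpc1). Relative to the Fed mean, Myh7, the slow myosin heavy chain, was at -0.92, -0.53 and -1.18 on the log2 scale in the P2 rats and at -0.55, -1.17 and -1.10 in the P3 rats. The mean over 9 slow fibre genes was -0.78, -0.34 and -0.99 in the P2 rats, and -0.84, -1.36 and -1.18 in the P3 rats. The part of slow fibre content in the Atp2a2 values was not tested. The summed linear intensity of the slow list was 11350 to 13980 in P3, 14190 to 17610 in P2 and 19870 to 20590 in Fed rats. The mean of Atp2a2 minus Atp2a1 differed from that of Fed rats by -0.56 in P2 and by -0.52 in P3, and the exact permutation test across the groups gave p = 0.193 (0.193 adjusted).

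**Figure D2:**
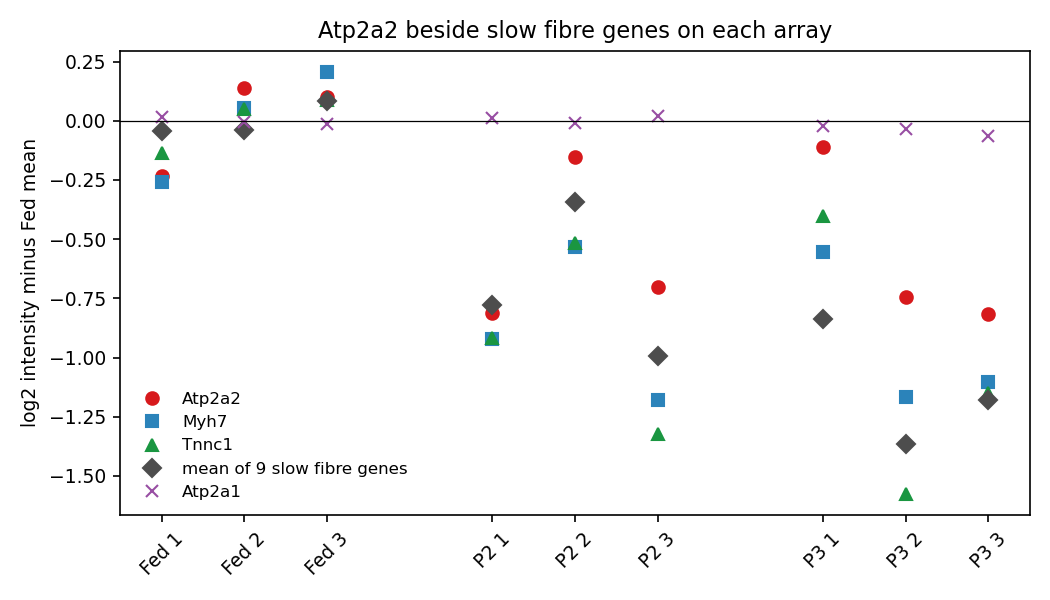
Log2 intensity minus the Fed mean (vertical axis) on each of the 9 arrays for Atp2a2, the slow fibre genes Myh7 and Tnnc1, the mean of 9 slow fibre genes, and Atp2a1. P2 2 and P3 1 are the highest of their groups for Atp2a2 (-0.15 and -0.11) and for the slow fibre mean (-0.34 and -0.84), while Atp2a1 stays near 0.

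Casq2, the calsequestrin of heart and slow fibres, had the largest P2 change of the 8 genes. On the log2 scale Casq2 read 9.89, 9.61 and 9.67 in the Fed rats, 7.25, 7.93 and 7.66 in the P2 rats, and 6.61, 6.08 and 6.71 in the P3 rats. The 3 groups did not overlap. In P2 it averaged 7.61 ± 0.34, against 9.72 ± 0.14 in Fed rats, a log2 fold change of -2.11 ± 0.20 or a 4.33-fold lower signal (limma, adjusted p = 0.000519). Only 12 probe sets had a more negative change in P2 versus Fed. In P3 versus Fed the log2 fold change was -3.26 ± 0.20 (adjusted p = 4.77e-06), which left 10.5% of the Fed signal, and in P3 versus P2 it was -1.14 ± 0.20 (adjusted p = 0.00446).

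Of the 9 slow fibre genes given beside Atp2a2, 3 were called lower in P2 versus Fed, 7 in P3 versus Fed and 2 in P3 versus P2, and none higher. Their part in the Casq2 values was not tested. Over all probe sets, 4.15% were called lower and 5.13% higher in P2 versus Fed. The same shares were 13.4% and 15.8% in P3 versus Fed, and 7.52% and 8.5% in P3 versus P2. Among 6 heart markers, Myh6 was called lower in P3 (-0.40, adjusted p = 0.0129) and none in P2, and their summed intensity was 299.5 to 331.7 in P3, 313 to 327.5 in P2 and 345.4 to 376.8 in Fed rats. Of 9 markers of smooth muscle and pericytes, in which Casq2 and Jph2 are also expressed, 7 were lower in P3 and none passed in P2. Their summed intensity was 4432 to 5892 in P3, 6399 to 8371 in P2 and 7960 to 9168 in Fed rats. Of 8 fibro-adipogenic markers, 6 were lower in P3 and 1 in P2, with a summed intensity of 4359 to 6853 in P3, 6578 to 12340 in P2 and 15250 to 16980 in Fed rats. All 3 tendon markers measured were lower in P3 and 1 was lower in P2. Their summed intensity was 231.3 to 265.1 in P3, 511.3 to 712 in P2 and 559.8 to 771.6 in Fed rats. Of 3 erythroid markers, 2 were lower in both phases, at 175 to 220.9 in P3, 184.4 to 236.3 in P2 and 651.3 to 735.6 in Fed rats. Of 5 satellite cell markers, 2 were lower in P3, at 295 to 321.8 in P3, 426.2 to 517.3 in P2 and 441.4 to 457.8 in Fed rats. Of 7 adipocyte markers, 3 were higher in P2 and 1 lower in P3, at 758.4 to 980.6 in P3, 1761 to 1969 in P2 and 1055 to 1131 in Fed rats. No macrophage, endothelial, lymphocyte or Schwann cell marker measured was called lower in any comparison. Of 11 macrophage markers, 1 was higher in P3, and of 8 endothelial markers, 1 was higher in P2 and 1 in P3. The part of all these cells in the values of Casq2, Jph2 and the other fallen members was not tested. The markers of skeletal muscle itself were present on all arrays. Their summed intensity was 62220 to 63660 in P3, 68190 to 69340 in P2 and 70130 to 72110 in Fed rats. A sum is weighted to its brightest genes, and the part of the highest array signal (13.87 to 14.001 in log2) in these sums was not tested. Of the 7 markers measured, only Mb, the myoglobin gene, was lower in P3 (-0.81, limma, adjusted p = 0.00141).

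Pvalb, the parvalbumin of fast fibres, fell in both phases. On the log2 scale Pvalb read 13.17, 13.12 and 13.22 in the Fed rats, 12.88, 12.43 and 12.63 in the P2 rats, and 11.28, 11.33 and 11.28 in the P3 rats. The groups did not overlap, and the P3 rats agreed within 0.1. In P3 versus Fed the log2 fold change was -1.87 ± 0.11, a 3.67-fold lower signal (limma, adjusted p = 2.84e-06), and in P3 versus P2 it was -1.35 ± 0.11 (adjusted p = 5.5e-05). The P2 versus Fed value of -0.53 ± 0.11 passed the test (adjusted p = 0.0162) but missed it without Fed 1 (adjusted p = 0.0514), without Fed 3 (adjusted p = 0.0605) or without P2 3 (adjusted p = 0.0584).

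**Figure D3:**
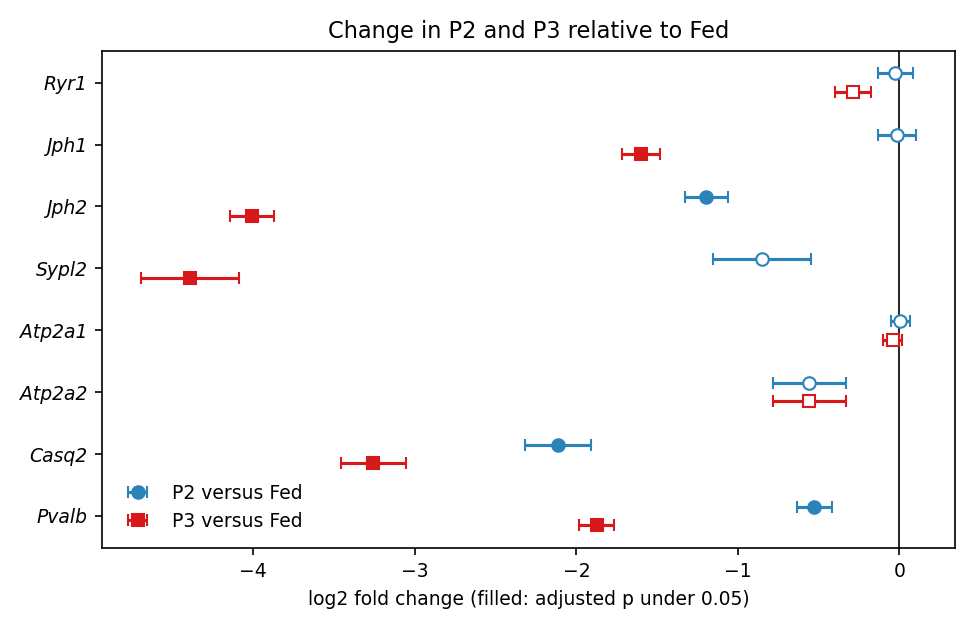
Log2 fold change ± SE (horizontal axis) of the 8 measured members in P2 versus Fed (circles) and P3 versus Fed (squares), n = 3 rats per group, with filled symbols where the adjusted p is under 0.05. Jph1 lies at -0.01 in P2 and -1.60 in P3, whereas Casq2 lies at -2.11 in P2 and -3.26 in P3.

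The 5 fallen genes differed in how much of the P3 change was already present in P2. Each P2 rat's distance from the Fed mean was taken as a percentage of the P3 change on the log2 scale. The mean was 64.9% ± 10.6 (SD over the 3 P2 rats) for Casq2, 29.8% ± 7.5 for Jph2, 28.0% ± 11.9 for Pvalb, 19.4% ± 8.19 for Sypl2 and 0.85% ± 10.1 for Jph1. The lowest P2 rat was at 55.1% for Casq2, above every P2 rat for the other 4 genes. The ranges of Jph2, Pvalb and Sypl2 overlapped, and that of Jph1 (-8.81% to 11.3%) met that of Sypl2 (10.8% to 27.1%) at its upper end. These shares are descriptions and were not tested. Casq2 averaged 6.47 in P3, not far above the array medians (5.801 to 5.899). Pvalb averaged 13.17 in Fed rats, close to the highest signal of the arrays (13.87 to 14.001). The part of these limits in the shares was not tested.

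The rest of the calcium handling machinery was read through 7 further lists with 69 measured genes. Of these, 35 were lower and 3 higher in P3 versus Fed, 18 lower and 1 higher in P2 versus Fed, and 29 lower and 3 higher in P3 versus P2. The shares over all probe sets were 13.4% lower and 15.8% higher for P3 against Fed, 4.15% and 5.13% for P2 against Fed, and 7.52% and 8.5% for P3 against P2. In none of the 7 lists did the share called higher in P3 versus Fed reach that of all probe sets. The counts are a description of lists that were chosen with earlier results known.

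All 5 measured subunits and partners of the voltage sensor fell in P3, with a median log2 fold change of -1.69, and 2 of the 5 fell in P2 (median -0.20). Stac3, the adaptor that the voltage sensor needs for coupling, changed by -2.01 ± 0.09 in P3 versus Fed (limma, adjusted p = 7.48e-07). It read 8.65, 8.70 and 8.70 in the P3 rats, against 10.71, 10.73 and 10.64 in the Fed rats, and P2 lay at 10.68, 10.36 and 10.46. The calcium channel subunits Cacng6 and Cacnb1 changed by -1.84 ± 0.11 and -1.69 ± 0.13. The pore subunit Cacna1s is the member that was not analysed.

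Among 12 other genes of the junction and the T tubule, 8 were lower in P3 and none higher (median -0.62), and 4 were lower in P2. Trim72, a membrane repair protein, changed by -2.50 ± 0.12 in P3 versus Fed (limma, adjusted p = 1.45e-06) and by -1.35 ± 0.12 in P2 (adjusted p = 0.000433). Cav3, the muscle caveolin, changed by -2.18 ± 0.21 in P3, and Ank1, an ankyrin gene whose small muscle form anchors the reticulum, by -2.07 ± 0.13. Bin1, which shapes the T tubule membrane, changed by -1.43 ± 0.09 (adjusted p = 6.21e-06).

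Of 14 other release channels and partners of the ryanodine receptor, 6 were lower and 2 higher in P3, with a median of -0.19. Calm3 and Calm2, which both code for calmodulin, changed by -2.52 ± 0.17 and -1.34 ± 0.09 in P3 versus Fed. Hrc, a histidine-rich calcium binding protein of the reticulum, changed by -0.98 ± 0.07 (limma, adjusted p = 9.98e-06), and Trdn, the triadin that links the receptor to calsequestrin, by -0.59 ± 0.10 (adjusted p = 0.00155). The 2 higher ones were Itpr2, an inositol trisphosphate receptor (0.75 ± 0.23), and Fkbp1a, a binding protein of the ryanodine receptor (0.58 ± 0.14). Trdn, Itpr2 and Fkbp1a were picked after their values were seen, as was Bin1.

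Of 10 pump regulators, other calcium pumps and exchangers, 4 were lower in P3 and none higher (median -0.29). They include the plasma membrane calcium pump Atp2b3 (-1.24 ± 0.13) and the sodium-calcium exchangers Slc8a1 (-1.18 ± 0.17) and Slc8a3 (-0.95 ± 0.23). The SERCA inhibitors Sln and Pln did not pass the test. The listed pump regulators Mrln and Strit1 had no probe set with a single gene symbol and were not analysed. Sln (sarcolipin) had a log2 fold change of -0.63 ± 0.27 in P2 versus Fed (limma, adjusted p = 0.211) and -0.06 ± 0.27 in P3 versus Fed. Pln (phospholamban) read 7.63, 8.01 and 7.91 in the P2 rats, against 7.35, 7.15 and 7.25 in the Fed rats, with no overlap. Its log2 fold change was 0.60 ± 0.16 in P2 versus Fed (adjusted p = 0.0503) and 0.29 ± 0.16 in P3 versus Fed (adjusted p = 0.227). Sln and Pln were picked as direct regulators of the pumps.

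Store-operated calcium entry refills the reticulum from outside the cell. Of its 9 measured genes, 3 were lower and 1 higher in P3 (median -0.20). The reticulum sensors Stim2 and Stim1 changed by -1.29 ± 0.12 and -1.11 ± 0.07, and Orai3, a channel subunit, by 0.57 ± 0.09. The other channel subunits averaged lower in P3 than in Fed rats. Orai1 averaged 8.61 ± 0.07 in P3 and 9.09 ± 0.10 in Fed rats, and Orai2 6.45 ± 0.04 and 6.80 ± 0.06. Orai1 and Orai2 were picked after their values were seen. Of 5 genes of mitochondrial calcium uptake, 3 were lower in P3 and the same number in P2. Mcu, the pore of the mitochondrial uniporter, changed by -1.43 ± 0.12, its partner Micu2 by -0.82 ± 0.11 and Letm1, a cation exchanger, by -0.30 ± 0.08.

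Of 14 calcium-dependent kinases and calcineurin genes, 6 were lower in P3 and none higher (median -0.33). Rcan2, a calcineurin regulator, changed by -1.82 ± 0.11, and the calmodulin kinase genes Camk2a and Camk2b by -1.66 ± 0.15 and -1.14 ± 0.22. Rcan1, the related regulator, was picked after its values were seen because it went back up between the phases. It read 10.11, 10.002 and 10.13 in the Fed rats, 8.41, 8.15 and 8.48 in the P2 rats, and 8.78, 9.15 and 9.35 in the P3 rats. Its log2 fold change was -1.73 ± 0.14 in P2 versus Fed (limma, adjusted p = 0.000269) and 0.75 ± 0.14 in P3 versus P2 (adjusted p = 0.00697).

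**Figure D4:**
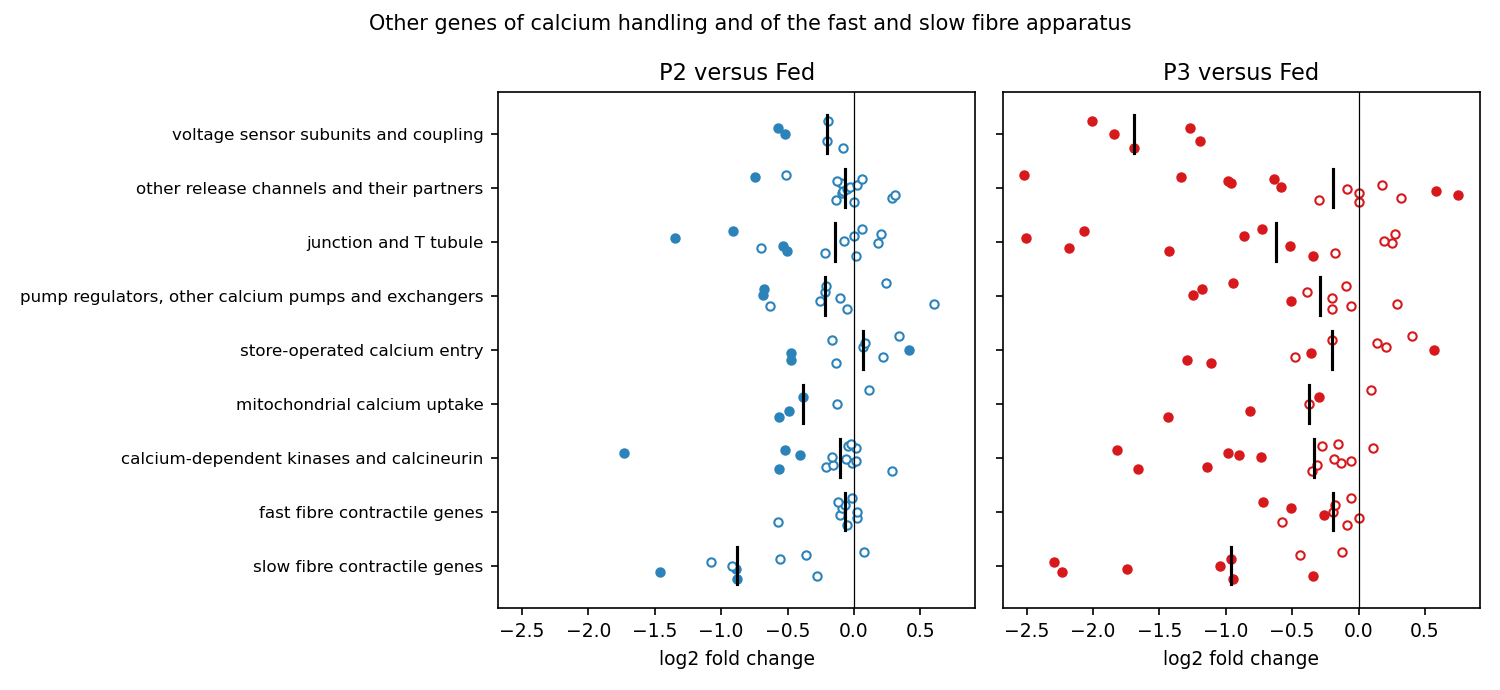
Log2 fold changes (horizontal axis) in P2 versus Fed (left) and P3 versus Fed (right) of the measured genes of 7 calcium handling lists and of the fast and slow fibre lists, 1 point per gene, filled where the adjusted p is under 0.05, with a black line at each list's median. All 5 voltage sensor genes are filled and at or below -1.19 in P3, while 6 of the 9 fast fibre genes are open.

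Fibre type genes were read for the same rats. Of 9 fast fibre contractile genes, 3 were lower in P3 (median -0.19) and none passed in P2. The fast myosin heavy chains did not pass, with log2 fold changes in P3 versus Fed of 0.01 ± 0.06 for Myh4, -0.09 ± 0.09 for Myh1 and -0.58 ± 0.20 for Myh2. In Fed rats, 6 of the 9 fast fibre genes averaged above 13, close to the highest signal of the arrays (13.87 to 14.001), and the part of that in their small differences was not tested. Tnni2, the fast troponin I, changed by -0.72 ± 0.07, Mybpc2 by -0.51 ± 0.10 and Myl1 by -0.26 ± 0.06. Of 9 slow fibre genes, 7 were lower in P3 (median -0.96) and 3 in P2 (median -0.88). Tnni1, the slow troponin I, changed by -2.30 ± 0.31 in P3, the myosin light chains Myl2 and Myl3 by -2.24 ± 0.25 and -1.74 ± 0.21, and Myh7 by -0.94 ± 0.21.

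The genes whose pattern over the 9 arrays was closest to each fallen member were found as the smallest root mean square difference of log2 values, each gene taken relative to its own Fed mean, among 5125 genes called in P3 versus Fed. For Jph2 they were Plcd4 (0.19), a phospholipase C, Gpd1 (0.25), a glycerol-3-phosphate dehydrogenase, and Slco5a1 (0.35). For Sypl2 they were Gpd1 (0.31), Jph2 itself (0.44) and Plcd4 (0.48). For Jph1 the nearest were Cand2 (0.12), Fgf2 (0.13) and the channel subunit Cacnb1 (0.14), which lay at -0.08 in P2 and -1.69 in P3. For Casq2 the nearest were Tceal7 (0.24), Map2k6 (0.27), a kinase of the p38 pathway, and Mettl21c (0.28), which lay between -1.98 and -1.89 in P2. For Pvalb they were Smarcd3 (0.090), Rcan2 (0.12) and Lgals1 (0.13).

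For the members that were not called, the same search covered 5126 genes called in P3 versus Fed and so left out genes that did not pass the test, which may lie closer. Within it, the nearest were at most 0.17 root mean square log2 units away. They were for Ryr1 Hic1, Lias and Sh3glb1, for Atp2a1 Pou2f2, Nucks1 and Pfkm, and for Atp2a2 Bche, Khdrbs3 and Cmtm6. Closeness over 9 arrays is a description and carries no test.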

How the data were processed

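RNA of tibialis anterior muscle from 3 Fed, 3 P2 and 3 P3 rats was hybridised to 9 arrays, and the groups come from the sample titles. The deposited log2 values come from the authors' RMA run (sketch quantile normalization and median polish over the probes of a probe set), and the submitters' processing notes name GCOS and Affymetrix Expression Console 1.1. No further normalization was applied to the 29215 probe sets. Genes come from the platform annotation, in which 15310 probe sets have 1 symbol, 323 several and 13582 none, and 15279 of the first matched a rat gene by identifier. The members and lists were chosen with earlier results of these data known.

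Group means were fitted with limma 3.58.1 in R 4.3.3 (lmFit, eBayes with 2.87 prior degrees of freedom) and tested two-sided, with Benjamini-Hochberg adjustment over all probe sets. The code was tested on simulated data. Named genes are all members, up to 3 genes per list with the largest P3 change among calls, 4 myosin heavy chains, and the 3 nearest patterns per member. Genes named outside this rule are marked in the text, apart from Mb, Myh6, Mybpc1 and Tnnc1. Alternatives were another quantile normalization, median centring, a filter at a mean log2 of 5, single-symbol probe sets, trend and robust moderation, array weights, 2 groups only, a replicate block, an adjusted p under 0.01, the methods' analysis of variance with Tukey's test at p under 0.001, other probe sets, and leaving out each array. The methods' soleus and protein measurements were not analysed here. The number of arrays, 3 per group, limits the precision. Figures used Python and matplotlib.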

Additional observations from a re-analysis of the deposited data

How the results depend on the processing

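The calls of Jph1, Jph2, Sypl2, Casq2 and Pvalb in P3 versus Fed were kept under every alternative run. Against 2711 probe sets called in P2 versus Fed, array weights gave 4284, an adjusted p under 0.01 gave 1118 and the analysis of variance with Tukey's test 660, and leaving out 1 array gave 1573 to 3364 (1573 without Fed 2, 1711 without Fed 3, 1627 without P2 3). Against 8538 in P3 versus Fed, Tukey's test gave 2813, and against 4680 in P3 versus P2 it gave 1419 and an adjusted p under 0.01 gave 2816. Leaving out 1 array gave 7010 to 9267 and 3597 to 4419. Members called lower were then 2 to 4 in P2 versus Fed and 5 to 6 in each of the others.

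Differences near 0 changed sign. Ryr1 in P2 versus Fed ran from -0.0743 to 0.0376 with 1 array left out. Jph1 in P2 versus Fed was 0.0235 after another quantile normalization, 0.0539 with array weights and -0.091 to 0.0701 with 1 array left out. Atp2a1 in P2 versus Fed was -0.00966 after median centring and -0.000133 to 0.0154 with 1 array left out, and in P3 versus Fed 0.025 after quantile normalization. Atp2a2 in P3 versus P2 was 0.0371 after median centring and -0.224 to 0.1997 with 1 array left out. Ryr1 passed in P3 versus Fed after quantile normalization (-0.32) and with array weights (-0.32). Sypl2 passed in P2 versus Fed with the mean of its probe sets (-0.99) and with only those groups fitted. Pvalb in P2 versus Fed missed with only those groups, an adjusted p under 0.01 or Tukey's test, and Casq2 in P3 versus P2 missed with Tukey's test. The cause was not tested. Another scaling moved the median of all probe sets by at most 0.04.

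The labels do not say whether the replicate numbers mark a batch or a litter. Deviations of same-numbered arrays correlated at -0.243 to 0.123, and 3 of 9 arrays correlated best with their own number. With so few arrays per group, each taken from its own group mean, these values cannot decide whether the numbers mark a pairing. A replicate block gave 1983 calls in P2 versus Fed, 7930 in P3 versus Fed and 4035 in P3 versus P2, and changed no call of a member (Jph2 in P3 versus Fed had an adjusted p of 1.07e-05, limma).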
